A study of Mus musculus with 2 samples.

Results

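The genes described here encode colony-stimulating factors, which are secreted growth factors of myeloid cells, and the receptor chains that bind them. Members were taken by gene symbol from both count matrices, which gave 6 of the 32285 genes listed: the ligands Csf1 (M-CSF) and Csf2 (GM-CSF) and the receptor chains Csf1r, Csf2ra, Csf2rb and Csf3r. All 6 were found in both matrices and had UMIs in both libraries.

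CSF1 and CSF2 act through different classes of receptor. CSF1 binds CSF1R, a receptor tyrosine kinase on which most tissue macrophages depend and which is a standard mark of monocytes and macrophages. GM-CSF binds the alpha chain CSF2RA together with the beta common chain CSF2RB, which IL-3 and IL-5 receptors also use, and signals mainly through JAK2 and STAT5. CSF3R is the receptor of G-CSF, the growth factor of neutrophils. In tumors these factors are known as products of tumor, stromal and activated lymphoid cells that recruit and maintain myeloid cells.

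The samples were subcutaneous tumors of the MC38 line, which derives from a mouse colon carcinoma, in WT mice. One library came from tumors without irradiation (Control). The other came from tumors that received ionizing radiation (IR) in 1 dose of 20 Gy and were collected 4 days later. The study describes a sort of live CD45+ cells, that is leukocytes, and sequencing of the RNA 3′ ends with 10x droplets. Each library pooled cells of several tumors, and there was 1 library per group, so no difference below has a replicate check. All comparisons are between these libraries, and no p-value is given.

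The matrices held 48593879 UMIs in Control and 42406461 in IR, and each unique molecular identifier (UMI) stands for one RNA molecule that was caught. Barcodes with at least 1000 UMIs, at least 200 genes and at most 25% mitochondrial UMIs were kept, 4679 in Control and 3410 in IR, with a median of 7302 and 8268.5 UMIs. The same barcode sequence was kept in both libraries in 6 cases. Marker lists placed 4100 (87.6%) and 2954 (86.6%) of these barcodes in 1 lineage each, and a group of barcodes so placed is called a gate. The largest gates were monocytes (821 Control and 1327 IR barcodes), macrophages (2129 and 433), T cells (531 and 328) and NK cells (222 and 314). Neutrophils numbered 24 and 164, mast cells or basophils 35 and 60, and mature dendritic cells (DC) 135 and 151. The sample records name the cells CD45+CD11b+Ly6Chi, a label of inflammatory monocytes, but T cell, NK cell and stromal gates were present in both libraries.

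Cells with collagen genes fell in a stromal gate, which a CD45+ sort would not be set to collect. This gate held 92 Control and 104 IR barcodes with a median of 18794.5 and 30990.5 UMIs. Its 11 stromal markers summed to 8187 CPM in Control and 5999 CPM in IR, where CPM is a gene's share of the UMIs of the gate, scaled as counts-per-million. Col3a1 and Sparc led in Control (2371 and 1938 CPM), and Sparc and Bgn in IR (1547 and 1269 CPM). Col1a1 had a UMI in 19.6% of Control and 20.2% of IR barcodes. Lum had one in 3.26% of Control barcodes and none in IR. Ptprc, the gene of CD45, was at 6.74 and 1.73 CPM. Of 6 listed markers of epithelial cells, Epcam, Krt18, Krt19 and Cldn4 had no UMI in this gate in either library. The others were rare. Among Control barcodes of the gate, 2.17% had a Krt8 UMI (1.04 CPM) and 3.26% a Cdh1 UMI (2.07 CPM). The IR barcodes had no Krt8 UMI, while Cdh1 stood at 0.288 CPM there. Whether the gate holds tumor cells was not tested.

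Levels below are CPM with exact 95% Poisson intervals, and differences are log2 ratios of the IR level over the Control level with exact 95% conditional intervals. These intervals and those of shares (exact Clopper-Pearson, 95%) hold counting error alone, without the variation between animals or libraries. A gene with at least 20 UMIs over both libraries of a gate was called higher or lower when its level differed by 1.5 times or more and the Poisson intervals did not overlap. Reads come from the 3′ end of each RNA, and levels are compared between gates for 1 gene and not between genes. A lower level in a gate can mean fewer cells that express the gene or less RNA per cell, which cannot be told apart from sums.

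The plot of the 6 genes by gate shows where each was found. Csf1 was high in neutrophil and mast cell or basophil gates, Csf2 in few barcodes of the mast cell or basophil, T cell and stromal gates, Csf1r in macrophages and monocytes, and Csf3r in neutrophils. Csf2ra and Csf2rb were spread over monocytes, macrophages, DC and neutrophils, and Csf2rb was highest in mast cells or basophils.

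**Figure D1:**
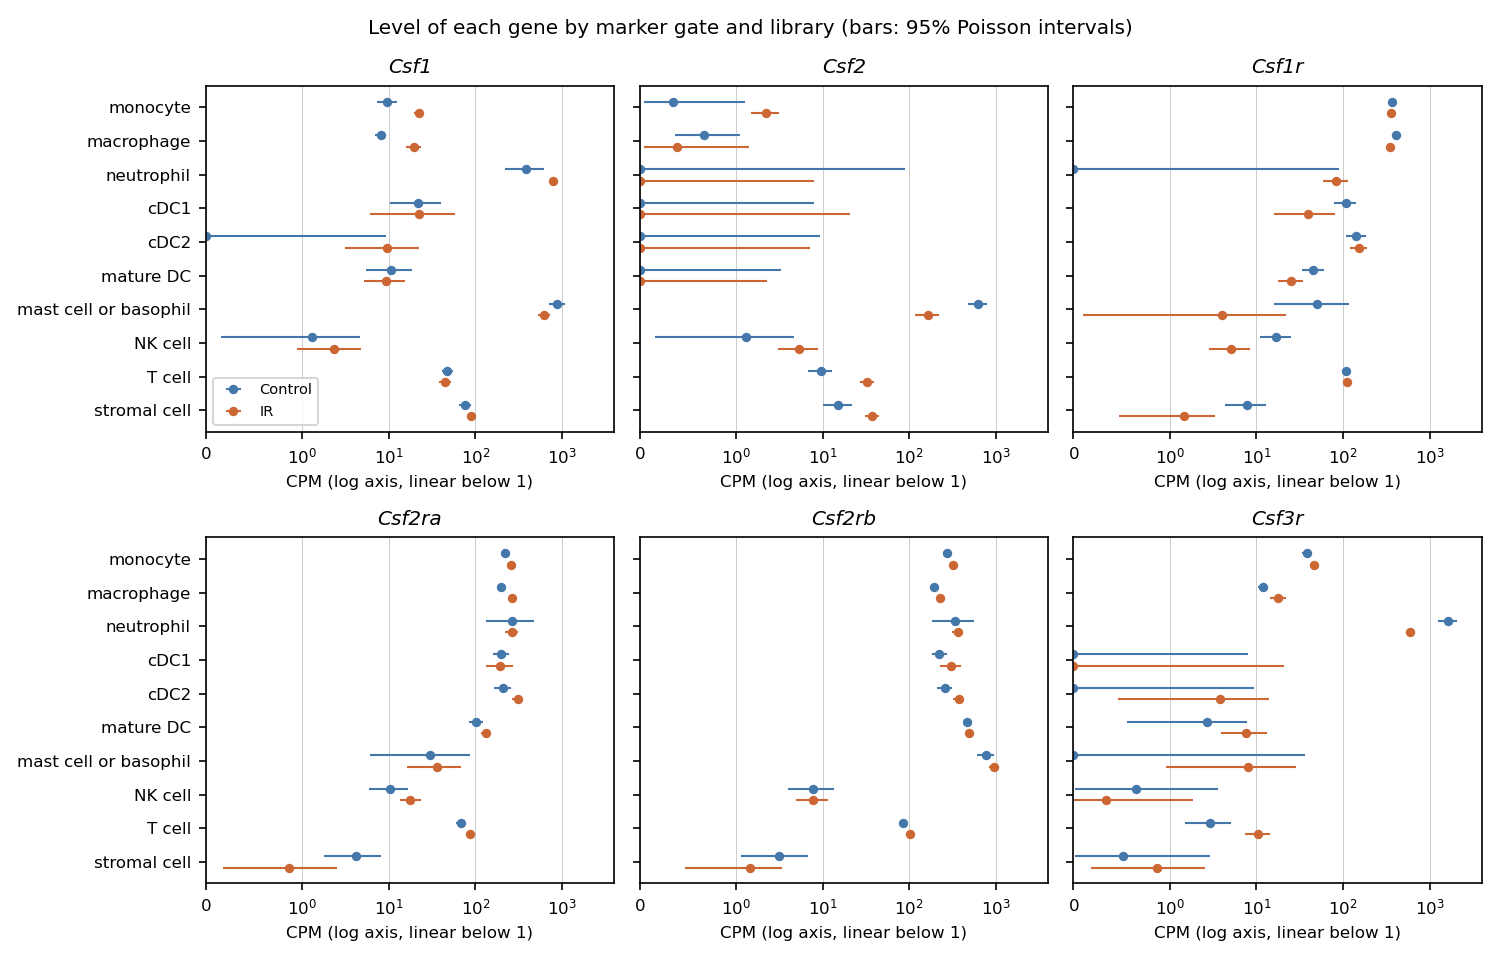
CPM of the 6 genes (1 panel each, log axis that is linear below 1) in marker gates of the Control and the IR library. Points are levels and bars exact 95% Poisson intervals. The plasmacytoid DC and B cell gates are not drawn. Csf3r stood at 1614 CPM in Control and 599 CPM in IR neutrophils, and Csf1r was above 300 CPM in monocytes and macrophages of both libraries.

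Positions are those of GENCODE vM21 on GRCm38. Csf1 (ENSMUSG00000014599) lies on the minus strand at chr3:107741048-107760469, Csf2 (ENSMUSG00000018916) on the minus strand at chr11:54247271-54249667, and Csf2ra (ENSMUSG00000059326) on the minus strand at chr19:61223957-61228429. Csf2rb (ENSMUSG00000071713) lies on the plus strand at chr15:78325752-78353847 beside its paralog Csf2rb2 and Csf3r (ENSMUSG00000028859) on the plus strand at chr4:126024550-126044440. Csf1r is ENSMUSG00000024621. UMIs were counted over whole genes, so the values do not separate exons from UTRs. The beta chain paralogs Csf2rb and Csf2rb2 are near copies over part of their length. In the last 500 bases of the transcript ENSMUST00000096355.3 of Csf2rb, 0 of 410 windows of 91 bases also occurred in Csf2rb2, and in a shorter Csf2rb transcript 11 of 410 did.

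The promoters of Csf1, Csf2ra and Csf3r are shown from RefSeq (GRCm38.p6). They are the members with an entry whose window held a match of the motifs named below. Of the 6 members, 4 matched an entry with a start site. Each run is the 250 bases before the start site, 5′ to 3′ on the gene's strand. Capitals mark a match of the letters GAGGAAG, a core of PU.1 sites, or of the NF-kB consensus, both searched on both strands.
Csf1 (chr3:107760470-107760719, minus strand): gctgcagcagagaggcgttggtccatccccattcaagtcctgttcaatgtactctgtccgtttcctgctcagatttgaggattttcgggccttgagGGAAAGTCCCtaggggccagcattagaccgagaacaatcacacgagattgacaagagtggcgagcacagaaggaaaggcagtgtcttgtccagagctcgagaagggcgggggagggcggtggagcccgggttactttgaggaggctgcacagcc
Csf2ra (chr19:61228419-61228668, minus strand): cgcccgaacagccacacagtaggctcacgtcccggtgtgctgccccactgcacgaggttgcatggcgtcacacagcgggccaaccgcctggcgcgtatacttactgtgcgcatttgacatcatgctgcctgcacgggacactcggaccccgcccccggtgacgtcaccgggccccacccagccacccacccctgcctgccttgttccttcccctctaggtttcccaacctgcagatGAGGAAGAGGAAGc
Csf3r (chr4:126024409-126024658, plus strand): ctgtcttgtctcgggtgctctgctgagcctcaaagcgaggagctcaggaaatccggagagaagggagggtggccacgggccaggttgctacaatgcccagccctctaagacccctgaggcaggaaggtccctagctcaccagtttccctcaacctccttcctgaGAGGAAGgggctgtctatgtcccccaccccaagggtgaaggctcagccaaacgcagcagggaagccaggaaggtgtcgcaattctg
In Csf1 the capitals are an NF-kB match that starts at base -154 and reads on the opposite strand. In Csf2ra they are 2 PU.1 matches that start at -14 and -8 and share 1 base, and in Csf3r 1 PU.1 match that starts at -86. The Csf2 window held neither motif. Of 32851 promoters of the same length, 3486 (10.6%) held the PU.1 letters and 1281 (3.90%) the NF-kB consensus, so a match is a description of the letters and not of binding.

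Csf1 encodes the main ligand of CSF1R. Over all kept barcodes it had 788 UMIs or 19.0 CPM (17.7 to 20.3) in Control and 1680 UMIs or 44.4 CPM (42.3 to 46.6) in IR. Csf1 was called higher, with a log2 ratio of 1.23 (1.10 to 1.35). Csf1 had a UMI in 419 Control barcodes (8.95%, 8.15% to 9.81%) and 624 IR barcodes (18.3%, 17.0% to 19.6%). No single barcode carried it, since the barcode with most Csf1 UMIs held 2.03% of them in Control and 1.90% in IR.

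Neutrophils had the highest Csf1 level together with mast cells or basophils. In the neutrophil gate Csf1 was at 386 CPM in Control (16 UMIs, 220 to 626) and 789 CPM in IR (361 UMIs, 710 to 875). The log2 ratio was 1.03 (0.31 to 1.86), a call that rests on the 24 Control barcodes. With the richest barcode of each library left out, a choice made after seeing the data, the levels were 328 and 754 CPM and the direction was kept. Of the 164 IR neutrophils, 103 (62.8%, 54.9% to 70.2%) had a Csf1 UMI, at a median depth of 2487 UMIs.

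In the mast cell or basophil gate Csf1 went the other way, from 881 CPM (89 UMIs, 708 to 1084) to 617 CPM (155 UMIs, 524 to 722). The log2 ratio was -0.51 (-0.90 to -0.12), and the Poisson intervals overlapped, so it was not called. Pooled over both libraries, the neutrophil level of 755 CPM and the mast cell or basophil level of 693 CPM had a log2 ratio of 0.12 (-0.11 to 0.36), but most neutrophil UMIs came from IR. In Control the mast cell or basophil level was the higher one with no overlap of intervals, and in IR the neutrophil level was higher, with overlapping intervals.

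Stromal cells and T cells came next in the order of Csf1 levels among gates of at least 30 barcodes, and neither was called. Csf1 was at 76.7 CPM in Control (64.9 to 90.1) and 89.1 CPM in IR (79.5 to 99.6) in the stromal gate, with a log2 ratio of 0.22 (-0.07 to 0.51). Of the stromal barcodes, 57 of 92 in Control (62.0%, 51.2% to 71.9%) and 77 of 104 in IR (74.0%, 64.5% to 82.1%) had a Csf1 UMI. Thinned to 1000 UMIs each, 7.61% and 6.73% did. In T cells it was at 47.5 CPM (41.1 to 54.6) and 45.2 CPM (38.4 to 52.7). T cells with Cd8 but neither Cd4 nor Foxp3 held 52.8 and 57.1 CPM. T cells with Cd4 but neither Cd8 nor Foxp3 held 107 CPM in Control and 55.3 CPM in IR, from 20 and 10 barcodes with a UMI. NK cells were almost without Csf1, with 2 UMIs in Control and 7 in IR, in 0.901% and 1.59% of their barcodes. Mature DC were at 10.7 and 9.40 CPM and cDC1 at 21.8 and 22.6 CPM, the latter from 10 and 4 UMIs. B cells had 8 and 4 UMIs, plasmacytoid DC 3 and 0, and cDC2 0 and 5.

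Monocytes and macrophages had low levels of Csf1 that were higher in IR. In the monocyte gate Csf1 was at 9.69 CPM in Control (55 UMIs, 7.30 to 12.6) and 22.3 CPM in IR (300 UMIs, 19.8 to 24.9), with an interval of the log2 ratio from 0.78 to 1.64. In the macrophage gate it was at 8.08 CPM (169 UMIs, 6.91 to 9.39) and 19.6 CPM (16.0 to 23.8), a log2 ratio of 1.28 (0.91 to 1.64). Both were called higher, and both gates also gained UMIs of neutrophil markers. The 9 neutrophil markers summed to 153 CPM in Control and 1142 CPM in IR monocytes, with 1 and 0 of them without a UMI. In macrophages they summed to 128 and 626 CPM, with 0 and 1 without a UMI.

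The monocyte gate was therefore split by whether a barcode had a UMI of any of the 9 neutrophil markers (S100a8, S100a9, Retnlg, Cxcr2, G0s2, Mmp8, Ly6g, Stfa2l1 and Il1r2). Without one, Csf1 was at 8.96 CPM in 539 Control barcodes and 9.94 CPM in 569 IR barcodes, a log2 ratio of 0.15 (-0.56 to 0.88). With at least 1, it was at 10.7 CPM in 282 Control and 28.1 CPM in 758 IR barcodes, a log2 ratio of 1.40 (0.81 to 2.04). The higher Csf1 of IR monocytes was measured in barcodes that also had neutrophil marker UMIs. Barcodes with a marker were also deeper. In IR those 758 barcodes held 9144918 UMIs and the 569 without a marker 4326395. In Control the 282 with a marker held 2438592 UMIs and the 539 without 3235300. In macrophages the log2 ratio was 1.16 (0.42 to 1.85) without a neutrophil marker and 1.08 (0.63 to 1.52) with at least 1. Monocytes can also express S100a8 and S100a9, and the part of doublets, free RNA and barcode depth in this split was not tested.

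**Figure D2:**
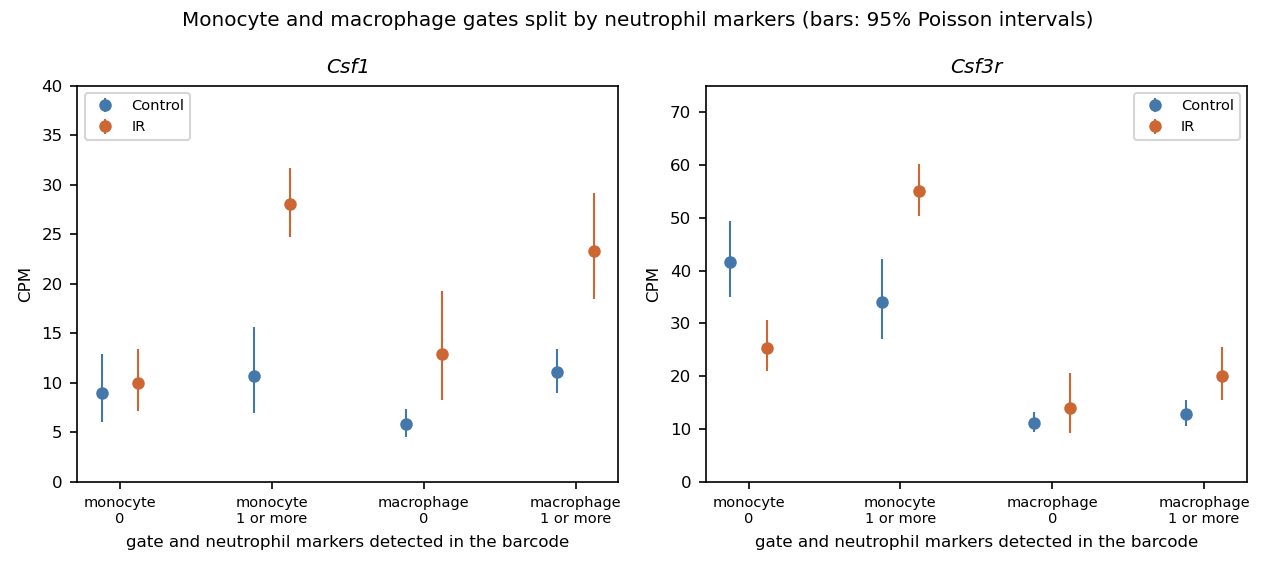
CPM of Csf1 and Csf3r in monocyte and macrophage gates, split by whether a barcode had a UMI of the 9 neutrophil markers, with points for the Control and the IR library and bars for exact 95% Poisson intervals. In monocytes without a neutrophil marker Csf1 stood at 8.96 and 9.94 CPM, and with at least 1 at 10.7 and 28.1 CPM.

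The gates that held the Csf1 UMIs differed between the libraries along with gate size. In Control, T cells held 24.7% of all Csf1 UMIs, macrophages 21.4%, stromal cells 18.8% and neutrophils 2.03% (1.16% to 3.28%). In IR, neutrophils held 21.5% (19.5% to 23.5%), stromal cells 18.4%, monocytes 17.9% and T cells 9.52%. The total was recomputed with the gate sizes of 1 library and the levels of the other. IR levels with Control gate sizes gave 30.6 CPM and Control levels with IR gate sizes 29.7 CPM, both between the measured 19.0 and 44.4 CPM.

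**Figure D3:**
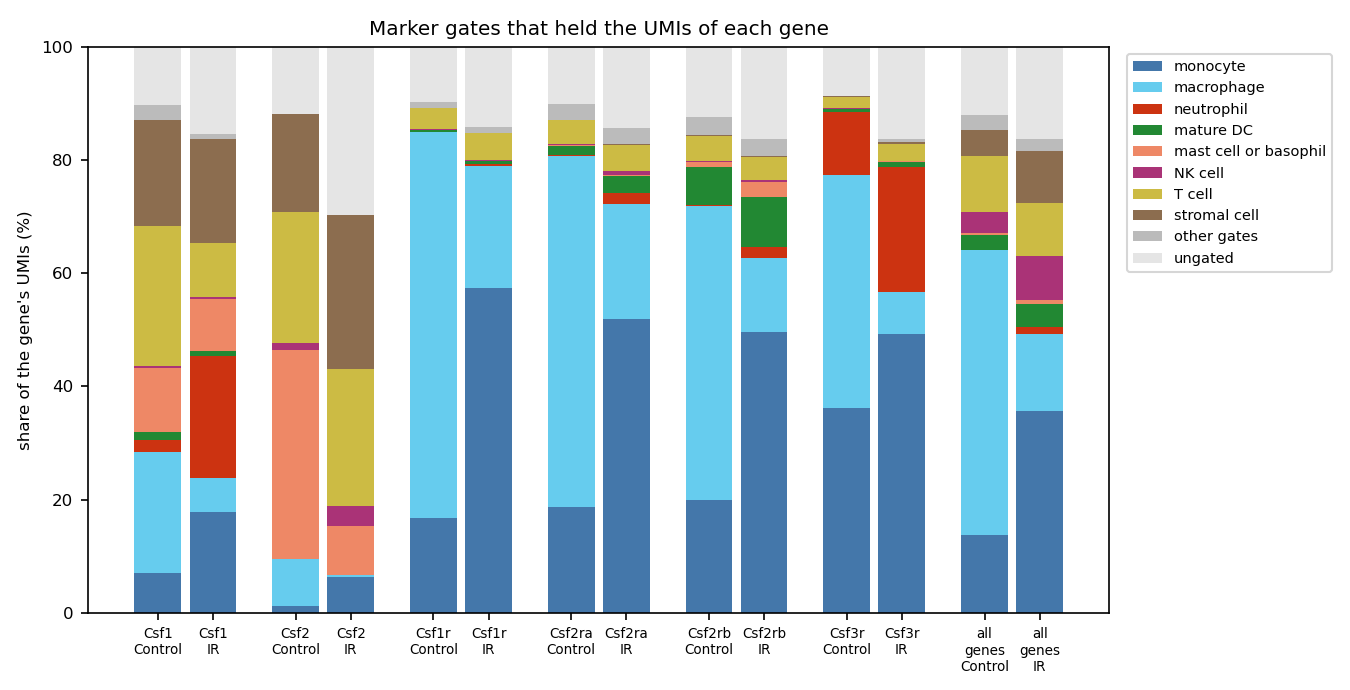
Share of each gene's UMIs (%, y axis from 0 to 100) held by each marker gate in the Control and the IR library (x axis, one pair of stacked bars per gene). Neutrophils held 2.03% of Csf1 UMIs in Control and 21.5% in IR, and macrophages held 68.2% and 21.6% of Csf1r UMIs.

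Csf2 encodes GM-CSF, a product of activated lymphocytes, mast cells and stromal cells. It was rare, with 168 UMIs or 4.04 CPM (3.46 to 4.70) in Control and 474 UMIs or 12.5 CPM (11.4 to 13.7) in IR. Csf2 was called higher, with a log2 ratio of 1.63 (1.37 to 1.89). It had a UMI in 53 Control barcodes (1.13%, 0.85% to 1.48%) and 67 IR barcodes (1.96%, 1.53% to 2.49%), and 5 or more UMIs in 8 and 24. When each cell counted equally, as the mean over cells of each cell's CPM, the log2 ratio was 0.21. The 5 richest barcodes held 53.0% of all Csf2 UMIs in Control and 52.1% in IR. Free RNA, read from barcodes with under 100 UMIs, had more Csf2 than the kept barcodes, at 11.8 CPM in Control and 16.0 CPM in IR.

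Single barcodes held much of the Csf2 in several gates. In the mast cell or basophil gate Csf2 was at 614 CPM in Control (62 UMIs) and 163 CPM in IR (41 UMIs), a log2 ratio of -1.91 (-2.52 to -1.32), and was called lower. One Control barcode held 60 of the 62 UMIs and one IR barcode 27 of the 41. Without these barcodes the levels were 20.3 and 57.6 CPM, and the log2 ratio was 1.51 (-0.61 to 4.69).

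T cells and stromal cells had Csf2 called higher in IR. In T cells Csf2 was at 9.50 CPM (39 UMIs in 19 barcodes, 6.75 to 13.0) and 32.5 CPM (115 UMIs in 14 barcodes, 26.8 to 39.0). The log2 ratio was 1.77 (1.24 to 2.34), and 0.96 (0.28 to 1.67) without the richest barcode of each library, where the Poisson intervals (4.93 to 10.4 and 10.6 to 18.8 CPM) were just apart. In T cell barcodes without a C1q UMI, a macrophage marker, Csf2 was at 10.1 CPM in Control (16 UMIs, 5.79 to 16.5) and 9.28 CPM in IR (19 UMIs, 5.59 to 14.5). In those with one it was at 9.10 CPM (23 UMIs) and 64.2 CPM (96 UMIs in 4 of 86 barcodes, 65 of them in 1), so the higher level was measured in barcodes that also had C1q UMIs. As the mean over cells, the log2 ratio of the whole T cell gate was 0.32. In the stromal gate Csf2 was at 15.0 CPM (29 UMIs in 7 barcodes, 10.1 to 21.6) and 37.2 CPM (129 UMIs in 15 barcodes, 31.1 to 44.2), where 1 IR barcode of 79015 UMIs held 65 of the 129. That log2 ratio was 1.31 (0.72 to 1.94), and 0.75 (0.02 to 1.54) without the richest barcode, where the Poisson intervals (6.94 to 17.1 and 14.5 to 24.1 CPM) overlapped and the call ended. The share of T cells with a Csf2 UMI was 3.58% (2.17% to 5.53%) in Control and 4.27% (2.35% to 7.06%) in IR, with overlapping intervals.

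The Csf2 UMIs of T cells were spread unevenly over subsets and barcodes. In Control, 27 of the 39 T cell UMIs were in 11 of 59 barcodes with Cd4 but neither Cd8 nor Foxp3, at 65.9 CPM. The same subset held 8 UMIs in IR, in 3 of 41 barcodes, or 18.4 CPM. T cells with Cd8 but neither Cd4 nor Foxp3 had 4 Csf2 UMIs in Control and 72 in IR, of which 65 were in 1 barcode of 35435 UMIs. In that subset 4 of 249 Control and 4 of 158 IR barcodes had a Csf2 UMI. Csf1r was at 237 CPM in Control and 171 CPM in IR in the Cd4 subset, and at 86.0 and 115 CPM in the Cd8 subset. The part of myeloid RNA in the Csf1 and Csf2 levels of these subsets was not tested.

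The other gates had little Csf2. Monocytes had 2 UMIs in Control and 30 in IR, or 0.352 and 2.23 CPM, a log2 ratio of 2.66, and were called higher. Of the 30 UMIs, 13 and 10 were in single barcodes of 42252 and 47263 UMIs, where the median of the gate was 8441. Nonclassical monocytes held 24 of the 30, these barcodes included. After removal of the richest barcode of each library, 1 and 17 UMIs remained, too few for a call. NK cells had 2 and 16 UMIs, 10 of the 16 in 1 barcode, with a log2 ratio of 2.05 (-0.04 to 5.21), and macrophages had 14 and 2 UMIs. Neutrophils, cDC1, cDC2, mature DC, plasmacytoid DC and B cells had none in either library. At a floor of 3 counts, 0 UMIs allow up to 72.3 CPM in Control and 6.56 CPM in IR neutrophils.

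**Figure D4:**
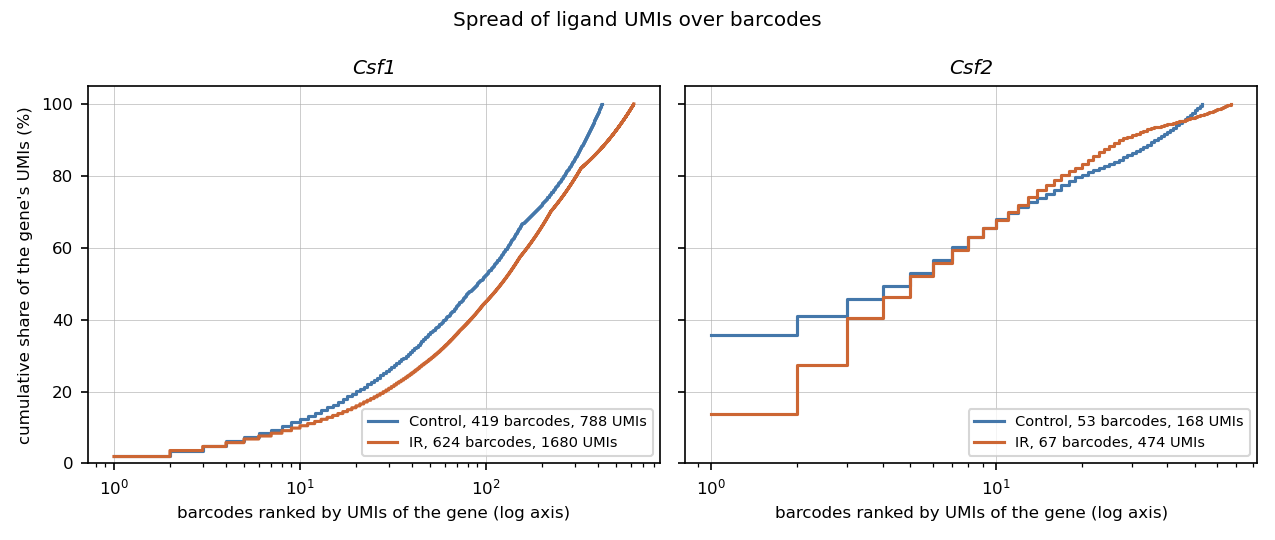
Cumulative share of Csf1 UMIs and of Csf2 UMIs (%, y axis) over barcodes ranked by their UMIs of the gene (x axis, log scale), with one line for the Control and one for the IR library. The first 5 barcodes held 53.0% and 52.1% of Csf2 UMIs but 7.36% and 6.79% of Csf1 UMIs.

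Csf1r encodes the receptor of CSF1 and IL-34. In macrophages it was at 404 CPM in Control (8446 UMIs, 395 to 412) and 350 CPM in IR (1805 UMIs, 334 to 367). In monocytes it was at 365 CPM (2069 UMIs, 349 to 381) and 356 CPM (4791 UMIs, 346 to 366). The monocyte intervals overlapped and the macrophage intervals did not, but the macrophage difference, a log2 ratio of -0.20 (-0.28 to -0.13), was far under 1.5 times. Macrophages were above monocytes in Control, and in IR the intervals of the macrophage and monocyte levels overlapped. The pooled log2 ratio of 0.13 (0.09 to 0.18) weights the libraries unequally, with most macrophage UMIs from Control and most monocyte UMIs from IR.

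Among monocytes Csf1r differed more between subsets than between libraries. Nonclassical monocytes, which patrol vessels and are known for high Csf1r, had 507 CPM in Control against 444 CPM in IR, against 351 and 339 CPM in the other monocytes. Cycling macrophages had 368 and 325 CPM and those not cycling 422 and 357 CPM. With every barcode thinned to 1000 UMIs, 31.3% of Control and 30.5% of IR macrophages and 30.3% and 29.0% of monocytes had a Csf1r UMI. NK cells, which lack the receptor, gave 3.15% (1.28% to 6.39%) and 0.637% (0.0772% to 2.28%) at that depth. Without thinning the shares were 86.7% and 84.8% of macrophages, 77.7% and 83.1% of monocytes, and 6.31% and 2.87% of NK cells.

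Over all kept barcodes Csf1r was at 298 CPM in Control and 221 CPM in IR, a log2 ratio of -0.43 (-0.47 to -0.39), and was not called. Control levels with IR gate sizes gave 240 CPM and IR levels with Control gate sizes 263 CPM. Macrophages held 68.2% (67.4% to 69.0%) of Csf1r UMIs in Control and 21.6% (20.7% to 22.5%) in IR. Monocytes held 16.7% and 57.3%.

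Other gates held less Csf1r. In cDC2 it was at 142 and 152 CPM, in mature DC at 45.5 and 25.1 CPM, and in cDC1 at 107 CPM in 40 Control and 39.6 CPM in 16 IR barcodes. It was called lower in NK cells, from 16.9 CPM (26 UMIs) to 5.05 CPM (15 UMIs), and in the stromal gate, from 7.78 CPM (15 UMIs) to 1.44 CPM (5 UMIs). Without the richest barcode of each library the stromal gate kept 9 and 3 UMIs, too few for a call. Both levels are small beside the free RNA of 204 CPM in Control and 165 CPM in IR. The macrophage marker list in the stromal gate moved with it, at 76.2 CPM in Control and 4.90 CPM in IR. In NK cells that list was at 117 CPM in Control against 80.2 CPM in IR. Its part in either result was not tested. Mast cells or basophils had 5 and 1 UMIs of Csf1r, B cells 14 and 1, and plasmacytoid DC 1 and 0. Neutrophils had no Csf1r UMI among 41503 UMIs in Control (0 to 88.9 CPM) and 38 UMIs or 83.0 CPM in IR (58.8 to 114). These intervals overlapped, and the 38 UMIs lay in 19 of 164 barcodes.

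Csf1r was also measured in T cells, which do not use CSF1R, at 108 CPM in Control against 111 CPM in IR, beside UMIs of macrophage and monocyte markers. T cell barcodes without a C1q UMI had 20.9 CPM in Control against 61.1 CPM in IR, and those with one 163 and 179 CPM. The 7 macrophage markers summed to 1265 CPM in Control and 528 CPM in IR T cells, and the 6 monocyte markers to 1177 and 2379 CPM. The macrophage markers were lower in IR while Csf1r was not, and their part in the receptor levels of the T cell gate was not tested.

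Csf2ra encodes the alpha chain that binds GM-CSF. In monocytes it was at 220 CPM in Control (1251 UMIs, 208 to 233) and 261 CPM in IR (3518 UMIs, 253 to 270), a log2 ratio of 0.24 (0.15 to 0.34). In macrophages it was at 198 CPM (4152 UMIs, 192 to 205) and 267 CPM (1376 UMIs, 253 to 282), a log2 ratio of 0.43 (0.34 to 0.52). In both gates the intervals did not overlap, and neither difference reached 1.5 times. After thinning to 1000 UMIs, 19.7% of Control and 23.2% of IR monocytes had a Csf2ra UMI, against 0.901% and 1.59% of NK cells.

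The same direction was seen in cDC2, from 208 CPM (166 to 258) to 307 CPM (262 to 359), and in mature DC, from 103 CPM (84.7 to 123) to 133 CPM (116 to 152). In neutrophils Csf2ra was at 265 and 262 CPM, and in cDC1 at 200 and 192 CPM. Pooled over both libraries, the cDC2 level was 265 CPM and the neutrophil level 262 CPM, a log2 ratio of 0.01 (-0.30 to 0.33). Neutrophils had the higher level in Control and cDC2 in IR, with overlapping intervals in both. Stromal cells, with 4.15 and 0.865 CPM, and NK cells, with 10.4 and 17.9 CPM, were lowest among the larger gates. T cells had 68.2 and 87.5 CPM, and B cells and plasmacytoid DC 4 UMIs each in both libraries. Csf2ra over all kept barcodes was at 161 and 179 CPM.

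Csf2rb encodes the beta common chain. Mast cells or basophils, which respond to IL-3 through it, had the highest level, 762 CPM in Control (77 UMIs, 602 to 953) and 951 CPM in IR (239 UMIs, 835 to 1080). IR over Control gave a log2 ratio of 0.32 (-0.06 to 0.71). Mature DC came next with 467 CPM (427 to 508) and 485 CPM (452 to 521). The pooled log2 ratio of the mast cell or basophil level over the mature DC level was 0.91 (0.73 to 1.09).

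Csf2rb was called neither higher nor lower in any gate. In monocytes it was at 273 CPM in Control (259 to 287) and 322 CPM in IR (312 to 332), a log2 ratio of 0.24 (0.15 to 0.32). In macrophages it was at 193 CPM (188 to 199) and 223 CPM (211 to 237), a log2 ratio of 0.21 (0.11 to 0.30). In neutrophils it was at 337 and 361 CPM, with Control at 14 UMIs, and in cDC2 at 256 and 375 CPM. In cDC1 it was at 222 CPM (181 to 269) and 305 CPM (229 to 398), and in plasmacytoid DC at 343 CPM (21 UMIs) and 268 CPM (17 UMIs). T cells had 85.5 and 103 CPM, and B cells 135 and 106 CPM from 28 and 6 UMIs. Csf2rb over all kept barcodes was at 188 and 231 CPM. NK cells had 7.82 and 7.75 CPM and stromal cells 3.11 and 1.44 CPM.

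In mast cells or basophils, where Csf2rb was highest, Csf2ra was at 29.7 CPM in Control and 35.8 CPM in IR, from 3 and 9 UMIs. Over 18 combinations of gate and library with at least 30 barcodes, the Pearson correlation of log2(CPM + 10) was 0.71 between Csf2ra and Csf2rb and 0.85 between Csf1r and Csf2ra. These are descriptions over combinations that share libraries and free RNA. In monocytes thinned to 1000 UMIs, a Csf2rb UMI was seen in 22.9% (Control) and 26.8% (IR) of barcodes with a Csf1r UMI, and in 20.6% and 21.3% of those without.

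Csf3r encodes the G-CSF receptor. In neutrophils it was at 1614 CPM in Control (67 UMIs, 1251 to 2050) and 599 CPM in IR (274 UMIs, 530 to 674), and was called lower. The log2 ratio was -1.43 (-1.82 to -1.02), while the median log2 ratio of the 2305 genes tested in this gate was -0.24. With TMM scaling it was -0.86. With at least 5 of the 9 neutrophil markers required, a choice made after seeing the data, the levels were 1679 CPM in 17 and 584 CPM in 113 barcodes. One Control barcode held 13 of the 67 UMIs, and the log2 ratio without the richest barcode of each library was -1.25 (-1.67 to -0.79). After thinning, 74 of 164 IR neutrophils (45.1%, 37.4% to 53.1%) had a Csf3r UMI. Control neutrophils, under 30 barcodes, were not thinned. Without thinning, 16 of 24 Control (66.7%, 44.7% to 84.4%) and 112 of 164 IR neutrophils (68.3%, 60.6% to 75.3%) had one. Their median depths were 1732.5 and 2487 UMIs. The 9 neutrophil markers of the gate summed to 101511 CPM in Control and 72940 CPM in IR.

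Neutrophils stood far above the monocytes, the gate with the next level, by a pooled log2 ratio of 3.97. In monocytes Csf3r was at 38.4 CPM in Control (218 UMIs, 33.5 to 43.9) and 45.6 CPM in IR (614 UMIs, 42.0 to 49.3), a log2 ratio of 0.25 (0.02 to 0.48) that was not called. It turned to -0.10 when the gates asked for 1 more marker, and to -0.080 as the mean over cells. In macrophages it was at 11.9 CPM (249 UMIs, 10.5 to 13.5) and 17.9 CPM (92 UMIs, 14.4 to 21.9), and was called higher with a log2 ratio of 0.59 (0.22 to 0.94), right at the limit of 1.5 times. Without the richest barcode of each library it was 0.52 (0.15 to 0.88), under that limit, and the call ended. In T cells it was at 2.92 CPM (12 UMIs) and 10.4 CPM (37 UMIs), and was also called higher. The summed neutrophil markers of the T cell gate were 149 CPM in Control and 404 CPM in IR. Of the T cell UMIs of Csf3r, 10 of 12 in Control and 34 of 37 in IR lay in barcodes with a neutrophil marker. Those barcodes held 1778659 of the 4106919 UMIs of the gate in Control and 2267715 of 3542202 in IR. Their log2 ratio was 1.42 (0.37 to 2.60). It was 1.45 (-1.67 to 5.04) in barcodes without a marker, from 2 and 3 UMIs. The part of neutrophil RNA in this result was not tested. Mature DC had 3 and 12 UMIs, mast cells or basophils 0 and 2, NK cells 1 and 1, stromal cells 1 and 3, and cDC1 none.

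The split by neutrophil markers turned the direction of Csf3r in monocytes. Without such a marker it was at 41.7 CPM in Control and 25.4 CPM in IR, a log2 ratio of -0.71 (-1.09 to -0.34). With at least 1 it was at 34.0 and 55.1 CPM, a log2 ratio of 0.70 (0.36 to 1.05). Both intervals exclude 0, in opposite directions, and no test of the difference was run. In macrophages the log2 ratios were 0.33 (-0.34 to 0.94) and 0.64 (0.18 to 1.09).

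Over all kept barcodes Csf3r rose from 14.5 CPM to 32.9 CPM (1245 UMIs), a log2 ratio of 1.18, although its level in neutrophils was lower in IR. Control levels with IR gate sizes gave 36.9 CPM and IR levels with Control gate sizes 21.3 CPM. Macrophages and monocytes held 41.3% and 36.2% of Csf3r UMIs in Control, and monocytes and neutrophils 49.3% and 22.0% in IR.

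**Figure D5:**
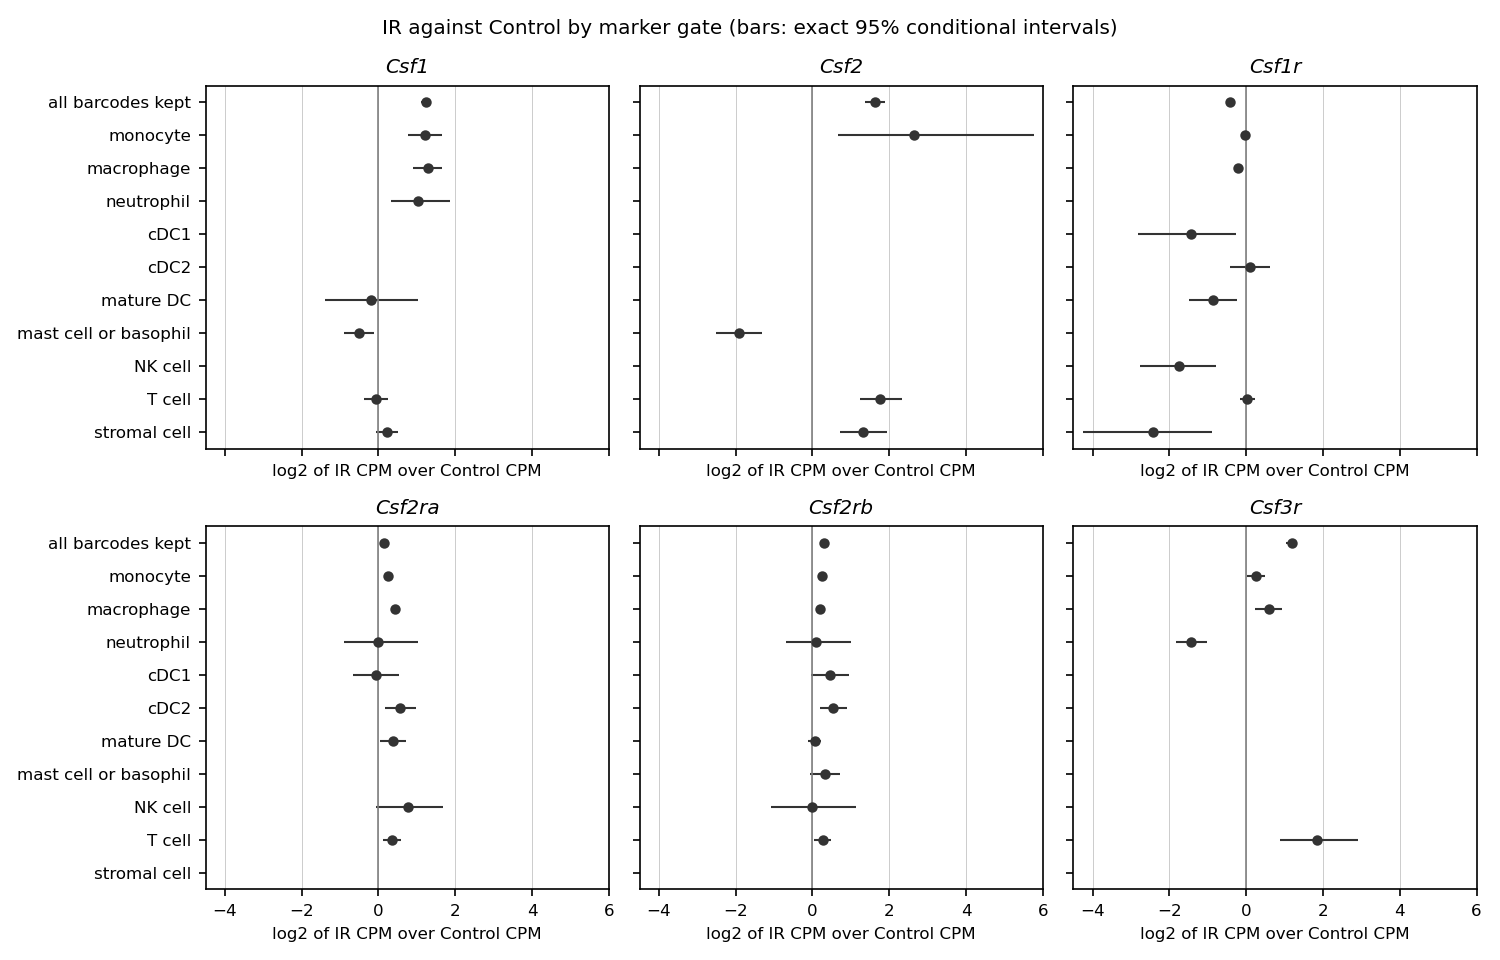
Log2 ratio of IR CPM over Control CPM (x axis) of the 6 genes (one panel each) by marker gate, with bars for exact 95% conditional intervals and a grey line at 0. Csf2ra and Csf2rb in monocytes and macrophages stood between 0.21 and 0.43, and Csf3r in neutrophils at -1.43.

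The calls were set beside those of all genes in the same gate. Over all kept barcodes, 3 of 6 members (Csf1, Csf2 and Csf3r) were called higher and 0 lower, where 8.3% of tested genes were called higher and 5.77% lower. In monocytes 2 of 6 (Csf1 and Csf2) were higher and 0 lower, against 3.87% and 2.97%. In macrophages 2 of 5 (Csf1 and Csf3r) were higher and 0 lower, against 4.56% and 6.48%. In neutrophils 1 of 5 (Csf1) was higher and 1 (Csf3r) lower, against 4.25% and 5.6%.

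In T cells 2 of 6 (Csf2 and Csf3r) were higher and 0 lower, against 3.38% and 2.27%. In the stromal gate 1 of 3 (Csf2) was higher and 1 (Csf1r) lower, against 3.11% and 4.4%. In mast cells or basophils 0 of 3 were higher and 1 (Csf2) lower, against 3.66% and 3.4%. In NK cells 0 of 3 were higher and 1 (Csf1r) lower, against 2.3% and 3.19%. In mature DC 0 of 4 were called, against 4.3% higher and 3.66% lower. Without the barcode richest in the gene, the calls of Csf3r in macrophages and of Csf2 in the stromal gate ended, and those of Csf2 in monocytes and mast cells or basophils and of Csf1r in the stromal gate were left with fewer than 20 UMIs. Csf1r was then called lower in mature DC, at 39.7 and 20.0 CPM, and in cDC1, at 93.4 and 12.7 CPM from 42 and 2 UMIs. With all barcodes neither was called and the intervals overlapped. The barcode left out of IR cDC1 held 5 of the 7 Csf1r UMIs of that gate, and no share over all genes was computed for cDC1. With at most 6 members per gate, these shares are read as counts only.

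Of the related ligands, Csf3 (G-CSF) was called higher in myeloid gates. In monocytes it went from 2 UMIs (0.352 CPM) to 42 UMIs (3.12 CPM), and in macrophages from 18 UMIs (0.860 CPM) to 31 UMIs (6.02 CPM). The 42 UMIs lay in 23 of 1327 IR monocytes. Il34, the other CSF1R ligand, was given here after its values had been seen. It was a gene of the stromal gate, which held 85.3% of its UMIs in Control and 94.6% in IR, at 66.4 and 55.4 CPM. Il3 had 0 and 3 UMIs in all, and Il5 8 and 13.

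A list of 38 genes of these pathways was read in the same way. In monocytes 34 were tested, of which 4 were called higher and 4 lower, against 3.87% and 2.97% of all tested genes. In macrophages 34 were tested, with 6 higher and 1 lower, against 4.56% and 6.48%. Of 5 feedback genes of JAK and STAT signalling, 2 were called higher in monocytes and 1 in macrophages. The others were not called in these gates. Cish was at 76.3 and 120 CPM in monocytes, and Socs3 at 275 and 424 CPM. Socs1 was at 57.4 and 129 CPM in macrophages.

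Of 6 genes known to respond to GM-CSF, 0 were called higher and 3 lower in monocytes, against 3.87% and 2.97% of all tested genes. In macrophages 3 were higher and 1 lower, against 4.56% and 6.48%. These are counts of 6 genes, and a response to GM-CSF was not tested. Mmp12, a macrophage elastase, was at 537 CPM in Control and 324 CPM in IR monocytes, but at 721 and 1276 CPM in macrophages. Ccl17, a chemokine of DC and macrophages, was at 90.9 and 57.2 CPM in monocytes and at 125 and 189 CPM in macrophages. Irf4 was lower in monocytes, at 19.7 and 8.24 CPM, and Ccl22 in macrophages, at 19.5 and 9.12 CPM. Dcstamp, which encodes a cell fusion protein, was higher in macrophages, at 30.6 and 46.2 CPM. Of the transcription factors, Cebpa was lower in monocytes, at 61.3 and 39.1 CPM.

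The same list was read in the other gates. Over all kept barcodes 5 of 36 tested were higher and 2 lower, against 8.3% and 5.77% of all tested genes. In neutrophils 2 of 19 were higher and 0 lower (4.25% and 5.6% of all tested genes), in mature DC 2 of 32 and 2 (4.3% and 3.66%), and in mast cells or basophils 2 of 18 and 0 (3.66% and 3.4%). Among the latter was Csf2rb2, the IL-3 specific beta chain, at 238 CPM in Control and 438 CPM in IR. In NK cells 0 of 26 were higher and 1 lower (2.3% and 3.19%), in T cells 3 of 33 and 1 (3.38% and 2.27%), and in stromal cells 2 of 22 and 5 (3.11% and 4.4%).

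Genes whose pattern was among the most like each member were found by Pearson correlation of log2(CPM + 10) over the 18 combinations, among 3224 genes. For Csf1r they were Ms4a6d and Cybb (0.97 each), Lyz2, Pid1 and Clec4a2. For Csf2ra they were Nrros (0.94), Picalm, Ctss and Lyn, and for Csf2rb Gcnt2 (0.96), Ncf1, Csf2rb2 and Jak2. For Csf3r they were Fpr2 (0.97), Mmp8, Arg2, Car4 and S100a8, of which Mmp8 and S100a8 also define the neutrophil gate. For Csf1 they were Egr1 (0.94), Gm12840, Igf1r, Cited2 and Cks2. For Csf2 they were Dnajb1 (0.96), Gata2, Klf5, Selenoi and Ubb, where Gata2 defines the mast cell or basophil gate and single barcodes hold most Csf2 UMIs.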

How the data were processed

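For each library the authors deposited an unfiltered matrix of UMI counts by gene and barcode from 10x 3′ chemistry (kit v3.1). The submitters' processing notes name Cell Ranger 6.0.1 and mm10, while the file headers name Cell Ranger 4.

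Barcodes were filtered on UMIs, genes (at least 200) and mitochondrial UMIs (at most 25%), the last 2 as in the study. A barcode entered a gate when at least 30% of a lineage's marker list had a UMI, with a margin of 10 percentage points over the next lineage. Barcodes within that margin of the next lineage (366 and 343) or with too few markers (213 and 113) were left out of gates, and doublets were otherwise left in. Myeloid barcodes were monocytes when the 6 monocyte markers (Chil3, Ccr2, Hp, Ly6c2, Ms4a4c and Plac8) had more UMIs than the C1q genes, and otherwise macrophages. The 6 members and all gene lists were chosen with earlier results of these data known, and the gate limits were set after gate sizes and markers had been seen, without the members' values. UMIs were summed per gate and library. Named genes were the 6 members, the 5 genes most correlated with each among genes of at least 100 CPM in 1 combination, and at most 12 of the listed pathway genes that were called, taken here from monocytes, macrophages and the receptor chains. Some of the genes so named are not reported here.

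Tools were Python 3.11.15, numpy 2.4.6, scipy 1.17.1, pandas 2.3.3, scanpy 1.11.5 (Scrublet), matplotlib 3.10.9, and R 4.3.3 with edgeR 4.0.16 for TMM scaling only. Scripts were tested on simulated data. No test between groups was possible with 1 library each. Alternatives concerned the UMI minimum, the mitochondrial limit, doublets, gate margin and genes, scaling, the CPM total, free RNA and the mean over cells.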

Additional observations from a re-analysis of the deposited data

Results flagged for a closer look

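The ratio of IR over Control of Csf2 had opposite signs in different gates. The log2 ratio was 2.66 in monocytes, 1.77 in T cells and 1.31 in the stromal gate, but -1.91 in mast cells or basophils. The mast cell or basophil value rests on 1 barcode per library, without which it was 1.51 (-0.61 to 4.69), and the stromal value was 0.75 (0.02 to 1.54) without the richest barcode. The difference between gates was not tested.

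The log2 ratio of Csf3r was 0.59 in macrophages and 1.84 in T cells, but -1.43 in neutrophils. The Control neutrophils numbered 24, and the macrophage value was 0.52 (0.15 to 0.88) without the richest barcode. The difference between gates was not tested.

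Barcodes with under 100 UMIs, which enter no comparison and hold free RNA, carried more Csf1 in IR, 27.8 CPM (22.9 to 33.5), than in Control, 15.2 CPM (12.1 to 18.9). Csf2ra was at 139 CPM (128 to 151) in IR and 117 CPM (108 to 127) in Control in the same barcodes.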

How the results depend on the processing

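No paired analysis was possible because each group had a single library, and leaving out a replicate was for the same reason not run. The alternatives covered only 13 of the log2 ratios of IR over Control. Left out were the calls of Csf1 in neutrophils, monocytes and macrophages, and of Csf2 in monocytes, mast cells or basophils and the stromal gate. The calls of Csf3r in macrophages, T cells and over all barcodes, and of Csf1r in NK cells and the stromal gate, were also left out. The 13 ratios were recomputed under 144 alternatives, of which 140 kept the sign and 4 did not. Those were Csf1r in monocytes under TMM scaling (0.022), Csf1 in the stromal gate as the mean over cells of each cell's CPM (-0.065) and 2 of Csf3r. Csf3r in monocytes, 0.25 as reported, reversed to -0.10 with a margin of 1 more distinct marker and to -0.080 as that mean over cells. The mean also moved Csf1 over all barcodes to 1.61, Csf2 over all barcodes to 0.21, Csf2 in T cells to 0.32, Csf1r in macrophages to -0.31 and in monocytes to -0.13, and Csf2rb in monocytes to 0.15. It weights shallow and deep barcodes equally. Without the richest barcode, an alternative added after seeing the data, Csf2 was 2.06 over all barcodes and 0.96 in T cells. Without Ly6c2, Plac8 and Ms4a4c among the gate genes, Csf2ra in monocytes was 0.14 and Csf2rb in macrophages 0.43. TMM scaling gave -0.86 for Csf3r in neutrophils, and CPM over UMIs neither mitochondrial nor ribosomal gave -0.29 for Csf1r in macrophages. The log2 ratio of the highest gate over the next moved to 0.057 for Csf1r and 2.84 for Csf2 with 1 more marker, and to 3.66 for Csf3r with at least 2000 UMIs. With 1 more marker the highest gate of Csf2ra could not be computed, since cDC2 fell under 30 barcodes. The cause of these changes was not tested. The free RNA share of a gate, read from markers of other lineages, was at most 10.8%. Depth limits what can be said of Csf2, with 168 and 474 UMIs, and of Control neutrophils, with 41503 UMIs in all.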

Other observations

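Barcodes with about as many markers of 2 lineages were in no gate. Those with markers of both monocytes or macrophages and neutrophils numbered 28 in IR and held 73 Csf1 UMIs, or 254 CPM. Over all barcodes with markers of 2 lineages, Csf1 was at 13.6 CPM in Control and 37.7 CPM in IR, Csf2 at 3.81 and 20.7 CPM, and Csf3r at 9.04 and 33.9 CPM. Without the richest barcode of each library, Csf2 in these barcodes was at 2.87 and 9.84 CPM. In barcodes with too few markers, Csf1 was at 30.8 and 104 CPM and Csf2 at 5.14 and 54.2 CPM.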
